A study of Mus musculus with 8 samples.

Results

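Schwann cells are the glia of the nerves that run through the skin, and the genes described here are 8 that mark these cells or build their myelin: *Mbp*, *Pmp22*, *Prx*, *Sox10*, *S100b*, *Ngfr*, *Egr2* and *Cdh19*. A gene was measured if the platform annotation gave at least 1 probe set that names it and no other gene, and where there were several, the one of highest mean level across the 8 arrays stood for it. This found 7 of the 8 genes, among 18193 genes with such a probe set, through 20 probe sets in all. *Prx*, which encodes periaxin of the myelin sheath, had no probe set annotated to it alone and was not analysed here. Whole skin of the back was profiled on arrays from female mice of the hairless strain Hos:HR-1, 4 fed the collagen diet and 4 fed the control diet, which the submitters term biological replicates. The collagen diet held 2 g of peptides from fish scale collagen (collagen hydrolysate) per 100 g of AIN-93G, a purified rodent diet, and the control diet was AIN-93G alone. All mice were 21 weeks old after 12 weeks of feeding. The comparisons ask whether these genes differ between the diets and whether they vary together from one skin sample to the next, as the amount of nerve in a sample could make them do.

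In a peripheral nerve, myelinating Schwann cells wrap single large axons in compact myelin, while non-myelinating Schwann cells hold bundles of thin axons, which in skin include those of pain and temperature fibres. SOX10 is a transcription factor of the neural crest that Schwann cells keep throughout life, and it acts with EGR2 (also called KROX20), the transcription factor that turns on the genes of myelin. Among their targets are the myelin proteins MBP and PMP22. Several of these genes are also known in other cells of skin: *Sox10* and *S100b* in melanocytes, *S100b* in adipocytes, *Egr2* in hair follicles and immune cells, *Ngfr* in keratinocytes, *Pmp22* in fibroblasts, and *Mbp*, through its golli transcripts, in immune cells. In whole skin, fewer cells of a type and less RNA per cell cannot be told apart.

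*Pmp22* is a gene with alternative starts, of which the promoter farthest upstream is known as the one used by Schwann cells and a downstream one as active in many tissues. Its single probe set gives 1 value for the gene. RefSeq (GRCm38.p6) lists 4 starts, and the 250 bases before the 2 farthest upstream are shown because they illustrate what this 1 value could combine. They lie on the plus strand of chromosome 11 at chr11:63128732-63128981 and chr11:63131207-63131456, and are written 5′ to 3′. Capitals would mark a SOX core (ACAAAG or ACAATG) or an EGR core (GTGGGNG) on either strand, and neither window holds one.
Pmp22 start 1: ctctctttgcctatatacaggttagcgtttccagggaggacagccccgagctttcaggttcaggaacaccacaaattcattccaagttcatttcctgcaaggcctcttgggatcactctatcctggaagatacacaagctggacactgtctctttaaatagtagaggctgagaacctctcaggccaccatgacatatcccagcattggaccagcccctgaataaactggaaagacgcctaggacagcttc
Pmp22 start 2: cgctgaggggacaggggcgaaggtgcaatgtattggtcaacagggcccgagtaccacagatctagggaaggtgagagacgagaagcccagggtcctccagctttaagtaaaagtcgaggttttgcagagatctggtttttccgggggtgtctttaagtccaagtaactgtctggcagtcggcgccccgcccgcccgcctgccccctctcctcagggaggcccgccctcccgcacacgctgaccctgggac
The first window is 48.8% G and C and the second 61.2%. Over all 32851 windows of this length in the table, 25.2% held a SOX core and 28.1% an EGR core, so a window without either is common.

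For a typical gene the deposited log2 values had an SD over the 8 arrays of 1.99 in units of 1e-05, far below what replicate arrays usually show. The summarization and normalization steps behind them are not stated in the sources used here. Differences on this scale can therefore not be read as fold changes of RNA, and levels are not compared between genes. Below, each array's value is its deviation from the mean of that gene over all 8 arrays, in units of 1e-05 of deposited log2. Diet differences, collagen minus control, are given in these units or over the pooled SD within the diets (SD units). Detection calls were not part of the values, so the number of arrays and their spread set the precision, and the smallest two-sided p of an exact permutation test with 4 arrays per diet was 0.0286. *Mbp*, *Pmp22*, *Sox10*, *S100b*, *Ngfr* and *Egr2* lay above the filter that removed the lowest 30% of genes by mean level, at 6.68 log2, and *Cdh19* lay below it. Of 7 oligodendrocyte genes, the myelin-forming glia of the brain, 5 lay below the filter, *Mog*, *Mobp*, *Olig1* and *Olig2* among them. *Opalin* (6.7 log2) and *Aspa* (7.62 log2) lay above it. A place above the filter was not taken by itself to show expression. Of 12 axon and sensory neuron genes with a probe set, whose RNA is mostly held in cell bodies outside the skin, 9 lay below it. The 2 arrays of collagen replicate 1 and control replicate 4 stood apart from the rest in skeletal muscle genes, with mean scores of -1.36 and -1.38 SD against 0.20 to 0.89 SD in the other 6 arrays, and results that rest on them are given with and without them.

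No diet difference was called in the Schwann cell and myelin genes tested. Of the 6 genes above the filter 0 had an adjusted p below 0.05 in limma's moderated test over all 12735 genes, where the share of all genes called was 0.0%. None had an unadjusted p below 0.05 either, against 5.36% of all genes, and in none were the diets free of overlap, against 3.31% of all genes. The share at an unadjusted p below 0.05 depends on the scaling, as 73 genes reached it after quantile normalization and 78 after median centring, against 682 on the values as deposited. In 5 of the 6 genes the mean was higher on the collagen diet, against 5796 of all 12735 genes. The median difference of the 6 was 0.28 SD, beside -0.08 SD over all genes tested. Directions depended on the scaling: after centring each array on its median, *Mbp*, *Sox10*, *S100b* and *Ngfr* were lower on the collagen diet. Quantile normalization turned *Sox10*, *S100b* and *Ngfr* to lower and *Egr2* to higher values on that diet. *Pmp22* came to 0.01 SD after median centring and 0.00 SD after quantile normalization. Of all genes, 86.5% were lower on the collagen diet after median centring and 65.7% after quantile normalization, against 54.5% as deposited. The turns to lower values are therefore not particular to these genes.

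Of the 2 transcription factors, *Sox10* (probe set 1451689_a_at, mean level 7.24 log2) had deviations of 0.636, -0.14, 0.881 and -0.163 in collagen replicates 1 to 4, against -1.53, 0.0212, -0.448 and 0.746 in control replicates 1 to 4. The lowest value was that of control replicate 1, and 2 of the other 3 control arrays lay within the collagen range. The difference was 0.607 ± 0.536 (SE, n = 4 per diet), or 0.78 SD, with an adjusted p of 0.999 in limma and an exact permutation p of 0.343. *Egr2* (1427683_at, 10.21 log2) had deviations of 7.52, -11.4, -7.75 and -10.2 in collagen replicates 1 to 4, against -0.544, -2.97, 4.70 and 20.6 in control replicates 1 to 4. Its deviations spanned the widest range of the 7 genes, and the highest value on each diet came from one of the 2 arrays low in muscle genes. Its difference was -10.9 ± 6.56 (SE, n = 4 per diet), or -1.12 SD, the largest in size of the 6 genes tested (limma adjusted p = 0.999, exact permutation p = 0.171).

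Without the 2 arrays low in muscle genes, the 3 remaining collagen arrays lay below the 3 remaining control arrays for *Egr2*, at means of -9.77 and 0.395. This difference was -3.32 SD with a limma adjusted p of 0.789, and an exact permutation p of 0.1, the smallest that 3 arrays against 3 can give. In the same 6 arrays the diets did not overlap in 9.77% of all genes, and *Egr2* was the 1 gene of the 7 where they did not. The second *Egr2* probe set (1427682_a_at) did not share this pattern. Its deviations in these arrays were -0.867, -27.2 and -12.0 in collagen replicates 2 to 4, against 24.9, -40.7 and 7.68 in control replicates 1 to 3, so the diets overlapped. In the same 6 arrays *Egr2* had an r of 0.90 with the score of 6 T cell genes and of -0.83 with that of 11 hair follicle genes, the marker lists with the lowest and the highest median diet difference among those of other skin cells. Over all 8 arrays these r were 0.60 (rho = 0.76, exact permutation p = 0.117 and 0.0368, adjusted p = 0.730 and 0.805 over 56 relations) and -0.38 (rho = -0.43, exact permutation p = 0.363 and 0.299, adjusted p = 0.834 for r). Both scores separated the diets in the 6 arrays, as *Egr2* did, so the r there cannot be told apart from the diet split. In deviations from the diet means over all 8 arrays, r was 0.38 with T cell genes. With hair follicle genes it was then 0.19, of the opposite sign. The part of these cells in the *Egr2* values was not tested.

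No diet difference was called for the genes of the 2 myelin proteins. *Mbp* (1433532_a_at, 9.45 log2), the basic protein that binds the cytoplasmic faces of the myelin membrane together, had deviations of -0.352, 1.03, -1.84 and 1.25 in collagen replicates 1 to 4, against -1.94, 0.0137, 2.57 and -0.732 in control replicates 1 to 4. The collagen values all lay within the control range, and the difference was 0.0438 ± 1.17 (SE, n = 4 per diet) with an exact permutation p of 0.943. *Pmp22* (1417133_at, 10.79 log2), a small membrane protein of compact myelin, had deviations of -1.05, 1.99, 5.51 and -1.65 in collagen replicates 1 to 4, against -1.39, -3.28, 3.28 and -3.42 in control replicates 1 to 4. Replicate 3 was the highest array of each diet. The difference of 2.40 ± 2.17 (SE, n = 4 per diet), or 0.75 SD, came with an exact permutation p of 0.286.

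The diets also overlapped for the genes of the calcium-binding protein, receptor and cadherin of Schwann cells. *S100b* (1434342_at, 6.92 log2), a calcium-binding protein used to stain Schwann cells, had deviations of -0.563, -1.14, 0.796 and 1.26 in collagen replicates 1 to 4, against -1.07, 0.224, -0.788 and 1.27 in control replicates 1 to 4. The 2 diets covered nearly the same range, with a difference of 0.16 SD (exact permutation p = 0.800). *Ngfr* (1454903_at, 7.17 log2), the low-affinity neurotrophin receptor p75 of non-myelinating and immature Schwann cells, had deviations of 2.60, 4.12, -2.93 and -1.73 in collagen replicates 1 to 4, against 0.265, -0.575, -2.31 and 0.557 in control replicates 1 to 4. Of the collagen arrays 2 lay above all control arrays and 2 below control replicates 1, 2 and 4, so that their SD was 3.38 against 1.29 on the control diet, a contrast that was not tested. The means differed by 0.40 SD (exact permutation p = 0.571). *Cdh19* (1457373_at, 6.50 log2), a cadherin known from Schwann cell precursors, had deviations of 8.68, -9.92, -6.25 and 3.96 in collagen replicates 1 to 4, against -3.56, 4.77, -6.15 and 8.47 in control replicates 1 to 4. The 2 highest arrays belonged to different diets, and the difference was -0.23 SD (exact permutation p = 0.686).

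**Figure D1:**
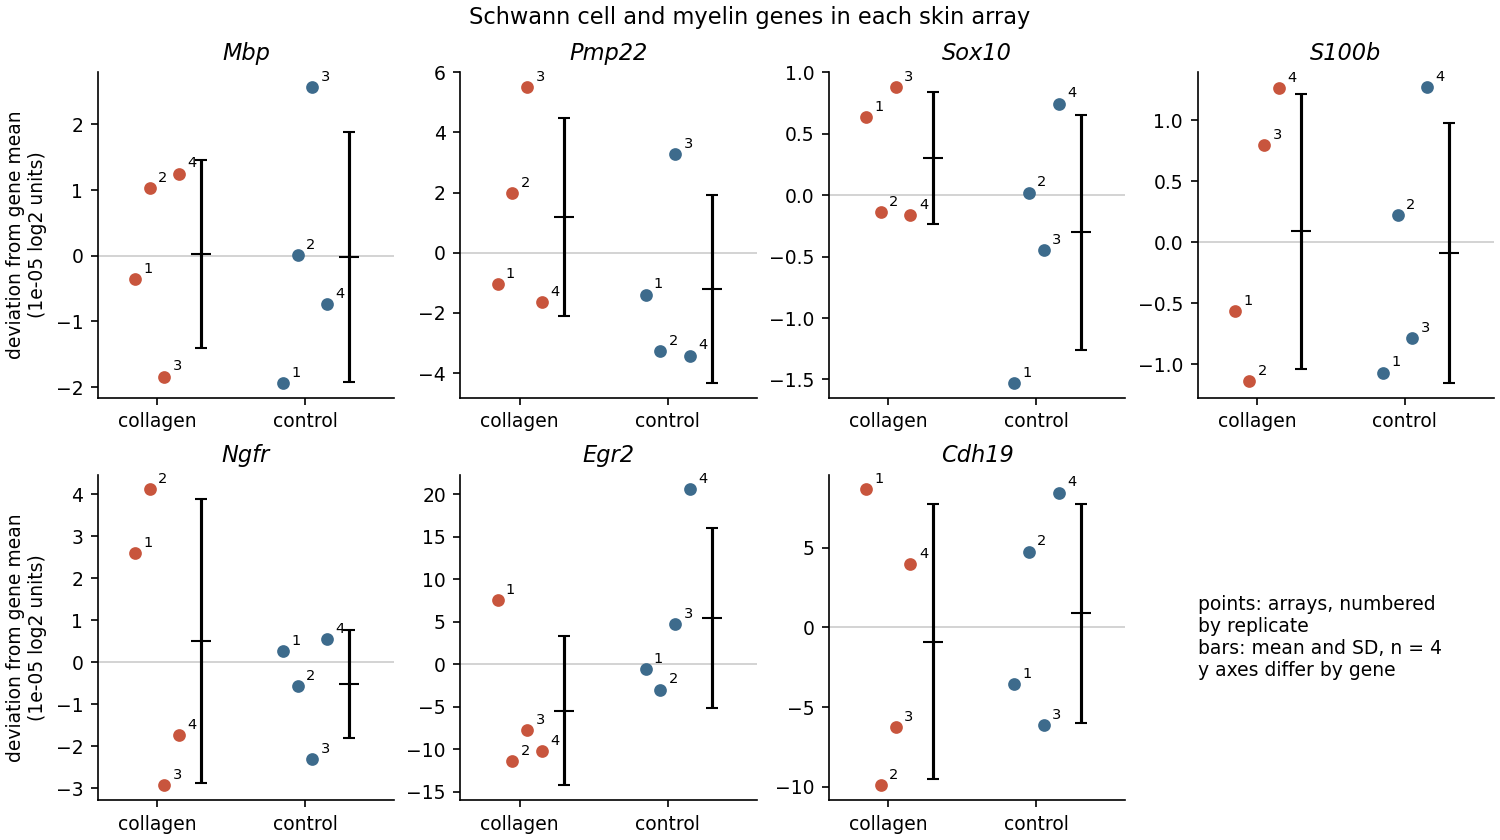
Deviation of each of the 7 genes from its mean over the 8 arrays, in units of 1e-05 on the deposited log2 scale, on the collagen diet (left) and the control diet (right), each point an array numbered by replicate, with the mean and SD (n = 4) beside it and a separate y axis per gene. The diets overlap in every panel, and *Egr2* and *Cdh19* are highest in collagen replicate 1 and control replicate 4.

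Further probe sets of the same genes show how far such small deviations repeat. Of the 20 probe sets, 8 were higher and 12 lower on the collagen diet. *Mbp*, with 8 probe sets, had 3 higher and 5 lower, and the directions also differed within *Sox10*, *S100b* and *Ngfr*, while both *Egr2* probe sets were lower. Over the 8 arrays, 29 of 36 pairs of probe sets of one gene (80.6%) correlated positively, with a median Pearson r of 0.34, as a description. *Mbp* alone gave 28 of these pairs, with a median r of 0.20. Over all genes tested 69.2% of such pairs were positive and their median r was 0.26, and for skeletal muscle genes the median was 0.97. The 3 *Sox10* probe sets reached r of 0.93 between 1424985_a_at and 1425369_a_at, and the *Sox10* probe set with the highest mean correlated with these 2 at 0.47 and 0.39. Probe sets of *Mbp* ranged from an r of -0.61 to 0.86.

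No diet difference was called in other genes of Schwann cells and nerves either. These lists were written with earlier results of the same arrays known, so their counts are a description. Of 8 further myelin genes above the filter, 2 were higher and 6 lower on the collagen diet, the median being -0.15 SD, and limma called 0. *Gal3st1*, the sulfotransferase that makes the myelin lipid sulfatide, differed by 1.67 SD (adjusted p = 0.930), *Cnp*, an enzyme of non-compact myelin, by -0.79 SD, and *Sh3tc2*, whose loss causes a demyelinating neuropathy in people, by -0.73 SD. Of 16 genes of Schwann cell identity and axon contact, 8 were higher and 8 lower, the median was 0.01 SD and 0 were called. *Dag1*, the dystroglycan that ties Schwann cells to their basal lamina, differed by -1.45 SD (adjusted p = 0.988), *Foxd3*, a neural crest transcription factor, by 1.21 SD, and *Erbb2*, part of the neuregulin receptor that drives Schwann cell growth, by -1.13 SD.

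Neurotrophic factors and their receptors were higher in 7 and lower in 2 of 9 genes (median 0.33 SD, 0 called). Here *Gfra1*, a coreceptor of GDNF, differed by 0.87 SD, *Ntf5*, the neurotrophin NT-4/5, by -0.82 SD and *Sort1*, a partner of NGFR in binding pro-neurotrophins, by 0.69 SD, each with an adjusted p of 0.999 in limma. The 3 axon and sensory neuron genes above the filter held *Tac1*, the precursor of substance P, at 1.82 SD (adjusted p = 0.902), *Prph*, peripherin, at -0.33 SD and *Stmn2* at -0.12 SD. Melanocyte genes, which share the neural crest origin and *Sox10*, were higher in 6 and lower in 3 of 9 genes (median 0.26 SD, 0 called), with *Rab38* at -0.88 SD, *Tyrp1* at 0.78 SD and *Mitf* at -0.69 SD. Among marker lists of other skin cells, 10 of 11 hair follicle genes were higher (median 1.97 SD) and all 6 T cell genes lower (median -0.71 SD), again with 0 called, and their part in the values above was not tested. An unadjusted p below 0.05 in limma was found for *Gal3st1*, for *Tac1*, for 7 of 11 hair follicle genes, 2 of 9 macrophage and dendritic cell genes, 1 of 9 adipocyte genes and 1 of 6 T cell genes, and for 0 genes of the other lists, where the share over all genes was 5.36%.

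**Figure D2:**
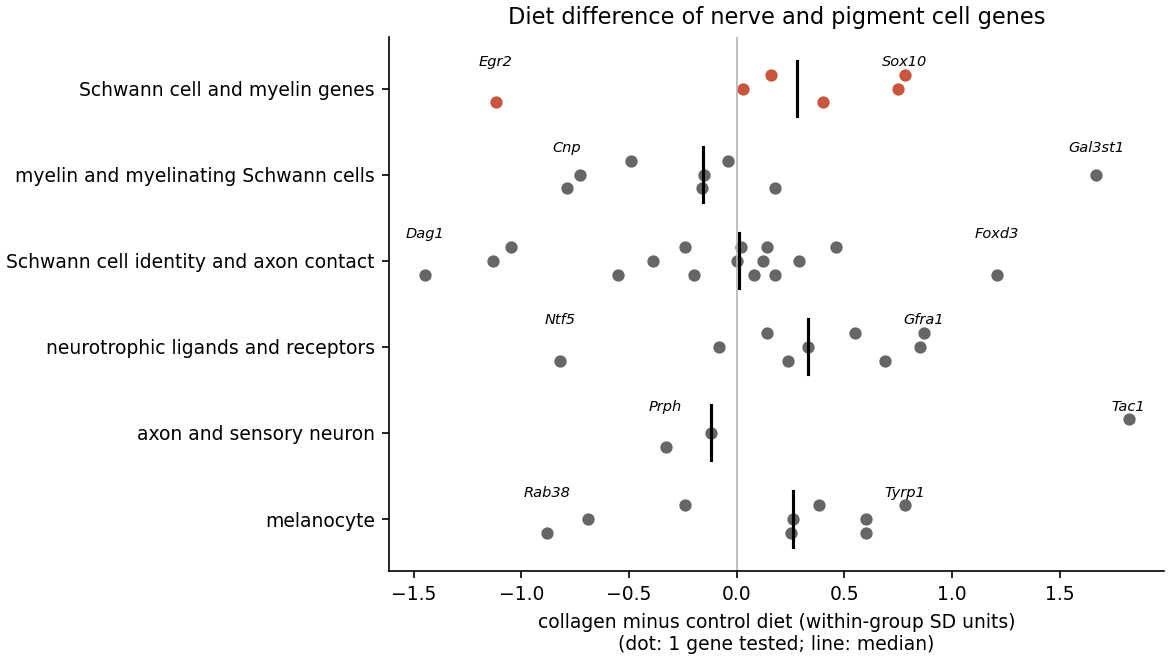
Difference between the diets, collagen minus control, in units of the within-group SD for each gene tested, by list, with a line at each list's median. The 6 Schwann cell and myelin genes lie between -1.12 and 0.78 SD, and the medians of the 6 lists drawn (these genes, further myelin, identity and axon contact, neurotrophic, axon and neuron, melanocyte) lie between -0.15 and 0.33 SD.

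On the deposited values no shared variation of the Schwann cell and myelin genes was seen over the 8 skin samples. Probe sets of the same gene had a median r of only 0.34 here, so a low r between genes cannot show that the genes vary apart. Of 21 pairs among the 7 genes, 10 had a positive Pearson r, and the median r was -0.01, next to 0.01 over all pairs of genes tested. The highest values were those of *Sox10* with *S100b* (r = 0.58, Spearman rho = 0.57) and of *Egr2* with *Cdh19* (r = 0.58, rho = 0.69), with exact permutation p for r of 0.124 and 0.126, adjusted to 0.881 over the 21 pairs. The relation of *Egr2* and *Cdh19* rested on the extreme arrays, since r was 0.16 without the 2 arrays farthest from the median of *Egr2* and 0.00 without the 2 arrays low in muscle genes. For *Sox10* and *S100b* it was 0.35 without the 2 farthest for *Sox10*, and 0.62 without the 2 low in muscle genes. The strongest relation was a negative one, between *Pmp22* and *Cdh19* (r = -0.78, rho = -0.69, exact permutation p = 0.0292 and 0.0694, adjusted p = 0.613 and 0.729). It stayed at -0.79 without the 2 farthest arrays and at -0.80 in deviations from the diet means. After quantile normalization, however, the r of this pair was -0.11, and after median centring 0.87. *Cdh19* also lay below the filter. *Mbp* and *Pmp22*, both proteins of compact myelin, had an r of 0.11 (rho = 0.10, exact permutation p = 0.795 and 0.840, adjusted p = 0.957 for r), and -0.38 without the 2 farthest arrays. *Sox10* and *Egr2*, which act on the same targets, had an r of 0.26 (rho = 0.17, exact permutation p = 0.531 and 0.703, adjusted p = 0.957 for r), with 0.70 without the 2 arrays farthest for *Sox10* but -0.47 without the 2 low in muscle genes, so that its sign depends on the arrays kept. No pair passed after adjustment. The value depends on the scaling. After centring each array on its median the median r of the 21 pairs was 0.96, and after quantile normalization 0.70, but over all pairs of genes it was then 0.96 and 0.80. The array medians spanned 36.9 units of 1e-05, many times the deviations of most genes, so these settings give nearly all genes a shared shift.

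**Figure D3:**
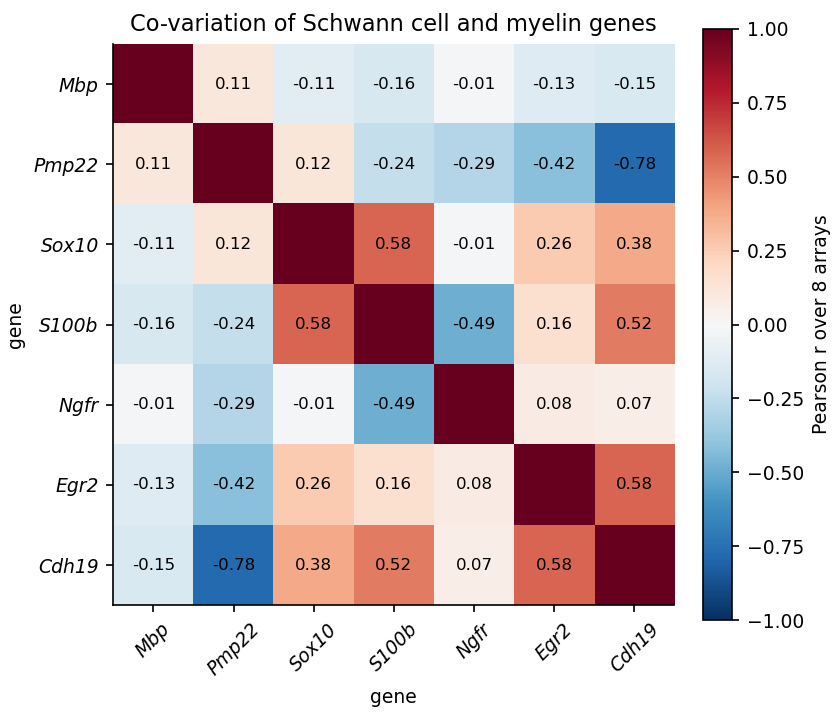
Pearson r over the 8 arrays for each pair of the 7 genes on the deposited values, from -1 (blue) to 1 (red). No block of positive values joins the genes, and the most extreme pair is *Pmp22* with *Cdh19* at -0.78.

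Lists of other cell types varied together to very different degrees in the same arrays. The median r was 0.96 among 15 skeletal muscle genes, 0.63 among 11 hair follicle genes and 0.53 among 9 dermal fibroblast genes. For the 16 genes of Schwann cell identity and axon contact it was 0.28, for the 8 further myelin genes 0.13 and for the 9 neurotrophic genes 0.06. The remaining cell types lay in the same low range, with 0.27 for T cells, 0.23 for endothelium, 0.20 for macrophages and dendritic cells, 0.18 for basal keratinocytes, 0.12 for adipocytes and 0.03 for melanocytes. These values are descriptions over the same 8 arrays, and whether the lists differ was not tested.

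**Figure D4:**
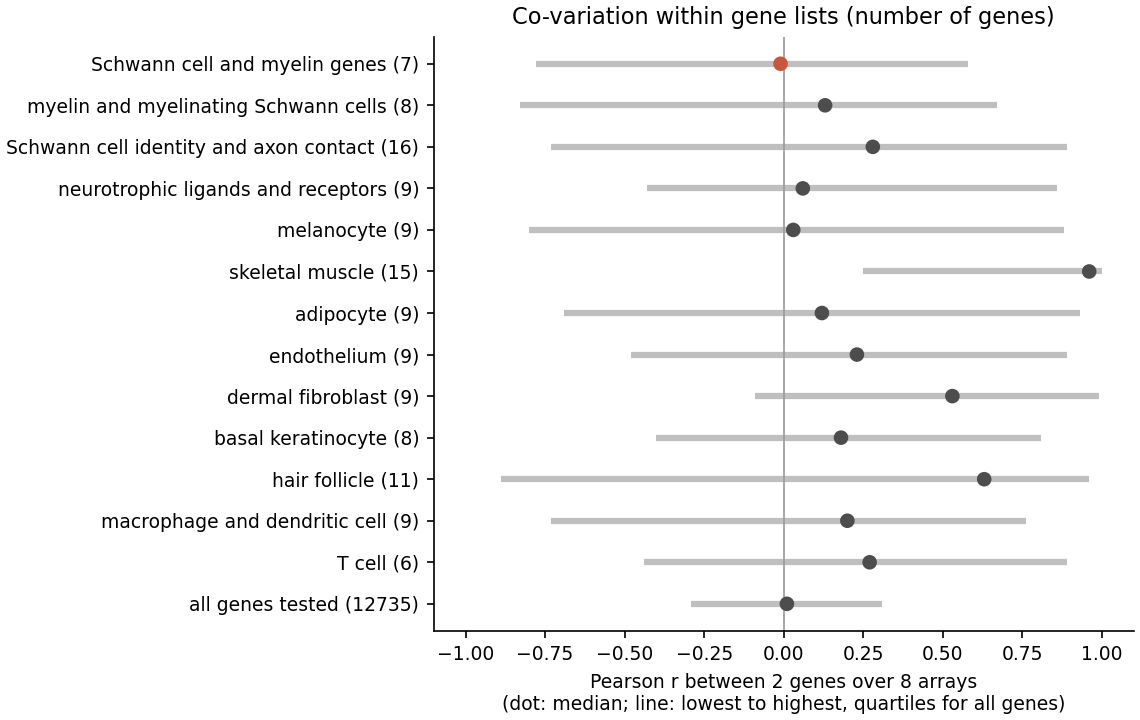
Median Pearson r between pairs of genes of each list over the 8 arrays (dot) with the lowest and highest r (line; for all genes tested the line spans the quartiles), with the number of genes in brackets. The 7 Schwann cell and myelin genes have a median of -0.01, next to 0.01 for all genes, and skeletal muscle genes one of 0.96.

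In the 2 arrays low in skeletal muscle genes, the probe sets that stand for *Egr2* and *Cdh19* were higher than in all other arrays. *Egr2* stood at 7.52 in collagen replicate 1 and 20.6 in control replicate 4, against -11.4 to 4.70 in the other 6 arrays, and *Cdh19* at 8.68 and 8.47, against -9.92 to 4.77. The second *Egr2* probe set did not separate both arrays, with 15.6 in collagen replicate 1 and 32.6 in control replicate 4, against -40.7 to 24.9 in the other 6. These were 2 of the 7 genes, and 6.39% of all genes tested had both arrays above the other 6. Of the 24 further myelin and Schwann cell genes 4 did (16.7%), namely *Sh3tc2*, *Erbb2*, *Erbb3*, which completes the neuregulin receptor, and *Scn7a*, a sodium channel of non-myelinating Schwann cells. None of the 24 lay below the other 6 in both, against 5.93% of all genes. Among neurotrophic genes *Nrtn*, *Ntrk2* and *Gfra2* lay above the other 6 in both, and so did *Col17a1* and *Lamb3* of 8 basal keratinocyte genes and *Plin4* of 9 adipocyte genes. Below the other 6 in both lay 14 of 15 skeletal muscle genes, *Col1a1* and *Col1a2* of 9 dermal fibroblast genes, *Adgre1* and *Mrc1* of 9 macrophage and dendritic cell genes, and *Ednrb* of 9 melanocyte genes. The part that other cells had in the values of *Egr2* and *Cdh19* was not tested. The probe sets that stand for the other 5 of the 7 genes did not separate these arrays. Among the further probe sets of those 5 genes, only 1425264_s_at of *Mbp* did. It stood at 1.51 in collagen replicate 1 and 0.89 in control replicate 4, against -1.79 to 0.408 in the other 6. As the muscle scores fall into 2 separate groups of arrays, no r with muscle was computed over all 8. Within the 6 other arrays *S100b* had the highest r with the muscle score (0.88, rho = 0.89, exact permutation p = 0.0222 and adjusted p = 0.155 over 7 genes), *Ngfr* had one of -0.64 (rho = -0.94, exact permutation p = 0.146 and 0.0167, adjusted p = 0.511 for r), and *Egr2* and *Cdh19* had r of -0.43 and 0.23.

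Each gene was also set against the mean scores of 8 marker lists of other skin cells, which makes 56 relations over the 8 arrays, and none passed after adjustment. The smallest p belonged to *Sox10* with endothelial genes (r = 0.77, rho = 0.62, exact permutation p = 0.0228 and 0.115) and *S100b* with the same list (r = 0.78, rho = 0.86, exact permutation p = 0.0275 and 0.0107). They were followed by *Ngfr* with basal keratinocyte genes (r = 0.77, rho = 0.64, exact permutation p = 0.0299 and 0.0962), *Pmp22* with dermal fibroblast genes (r = 0.75, rho = 0.38, exact permutation p = 0.0355 and 0.360) and *Mbp* with macrophage and dendritic cell genes (r = 0.72, rho = 0.71, exact permutation p = 0.0407 and 0.0576). The adjusted p for r was 0.456 in all 5. Without the 2 arrays farthest from the median of the list score, r was 0.59, 0.54 and 0.76 for the first 3 relations and 0.94 for *Mbp*. It was -0.06 for *Pmp22*, so that the relation with fibroblast genes rests on those 2 arrays. After quantile normalization r was 0.96, 0.90 and 0.93 for the first 3 relations, 0.75 for *Mbp* and -0.01 for *Pmp22*. After median centring it was 0.97, 0.97 and 0.98, with 0.93 for *Mbp* and 0.54 for *Pmp22*. Both settings give nearly all genes a shared shift. On the deposited values r was 0.69 for *S100b* with melanocyte genes (rho = 0.57, exact permutation p = 0.0721 and 0.151, adjusted p = 0.673).

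**Figure D5:**
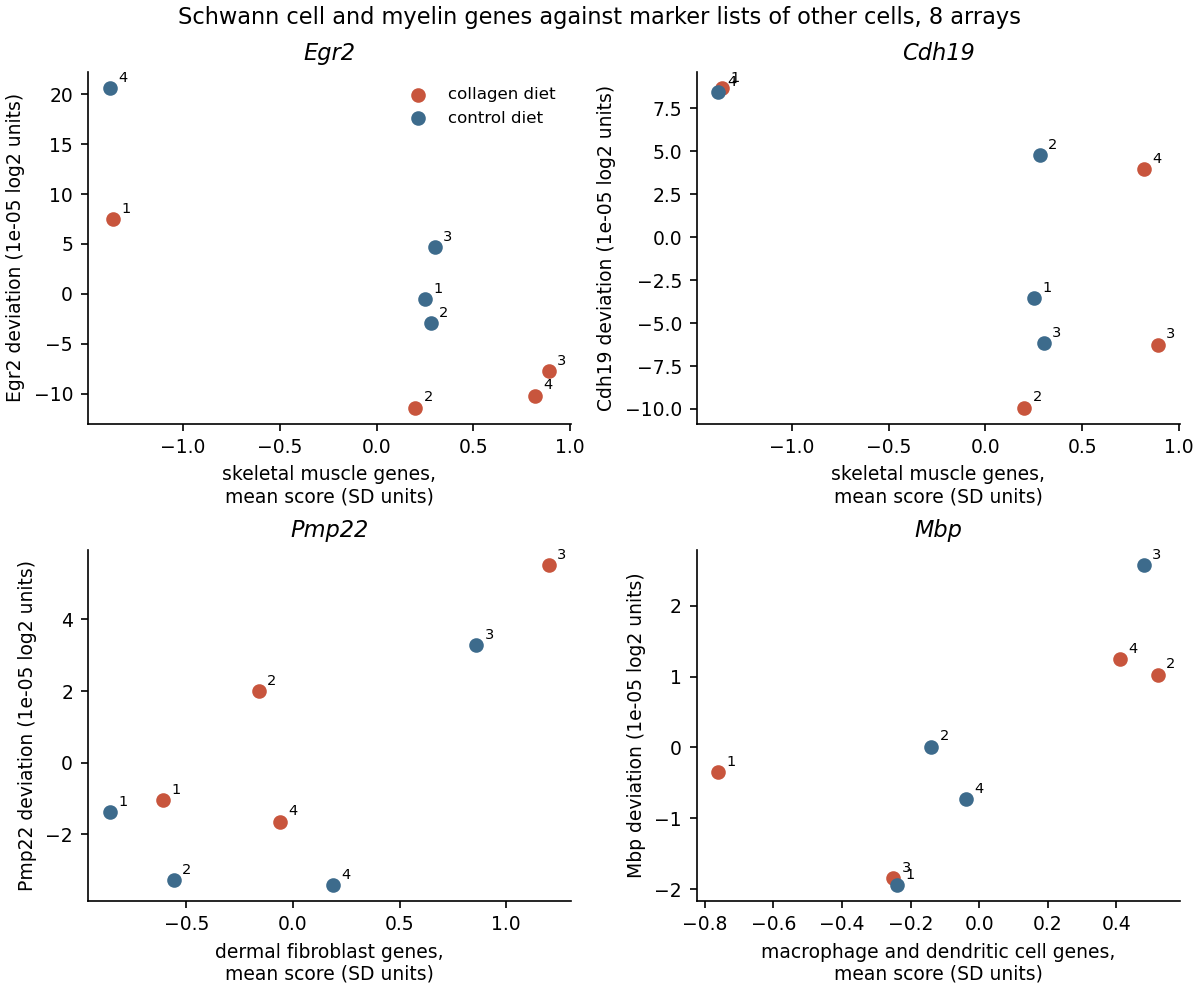
Deviation of *Egr2* and *Cdh19* against the mean score of 15 skeletal muscle genes (top), of *Pmp22* against 9 dermal fibroblast genes (bottom left) and of *Mbp* against 9 macrophage and dendritic cell genes (bottom right), each point an array numbered by replicate and coloured by diet. In the top panels collagen replicate 1 and control replicate 4 lie apart at the left, and replicate 3 of both diets is highest for *Pmp22*.

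The genes whose pattern over the 8 arrays was most like each gene were found among 12291 named genes by Pearson r, as a description, since with so many genes high values arise for almost any pattern: between 5 (*Mbp*) and 44 (*Ngfr*) genes had an r above 0.9. Nearest to *Pmp22* were *C1qtnf6* (r = 0.963), *Col3a1*, a chain of collagen type III (0.963), and *Prex1* (0.943). Nearest to *Mbp* were *Pik3ap1*, a signalling adaptor of B cells and myeloid cells (0.928), *Osbpl11* (0.918) and *Ms4a6b* (0.916). *Sox10* was closest to *Pars2* (0.984), *Rusc2* (0.979) and *Icmt* (0.951), and *Egr2* to *Dhx8* (0.967), *Mdfi* (0.965) and *Cdc42ep4* (0.960). *S100b* was closest to *Sema6d*, a semaphorin (0.965), *Tspan4* (0.957) and *Aqp1*, the water channel of capillaries and red cells (0.953). The closest to *Ngfr* were *Zfp572* (0.966), *Asphd1* (0.961) and *Gtsf1* (0.957), and to *Cdh19* *Gna14* (0.968), *Tdrd3* (0.949) and *Atg4d* (0.948). None of these is a Schwann cell gene of the lists used here. This is no measure of co-variation, since the Schwann cell and myelin genes described here were left out of the search. Only 24 further genes of the myelin and Schwann cell lists were tested.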

How the data were processed

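RNA of 8 skin samples was labelled by copying from the 3′ ends of transcripts and hybridised to oligonucleotide arrays, per the labels' protocols. Diets were taken from the sample titles. The authors deposited log2 values (5.34 to 14.27), 1 column for each array. The submitters' processing notes name R 2.7.2. No source used here states how probe sets were summarized or normalized.

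After 64 control probe sets were set aside, 34945 of 45101 probe sets named 1 gene symbol, 932 several and 9160 none. The lowest 30% of 18193 genes by mean were left out, which left 12735. The diets were compared without covariates by limma 3.58.1 (R 4.3.3), with lmFit and then eBayes using its trend option, two-sided p-values and a Benjamini-Hochberg threshold of 0.05, and this fit was tested on simulated data. Correlations and exact permutation tests (two-sided) used Python 3.11.15. A list score is the mean deviation of its genes in within-group SD units. The highest share of equal values between 2 arrays was 0.0172%, so each array counted as a sample. Promoter windows came from RefSeq for *Egr2*, *Ngfr*, *Pmp22*, *Prx* and *S100b*.

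The 8 genes, the lists and the tests were chosen with earlier results of these data known. Named genes are all 8, the 3 of each nerve and melanocyte list with the smallest p, and the 3 most alike to each gene (5 for their mean), without clones and predicted genes. Genes named for the 2 arrays low in muscle genes, and the setting without these arrays, were chosen after their values were seen. Alternatives were other filters, quantile normalization, median centring, no trend, array weights, a block for the replicate number, averaging a gene's probe sets, Spearman's rho, deviations from the diet means, and leaving out each array.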

Additional observations from a re-analysis of the deposited data

How the results depend on the processing

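No setting called a diet difference in *Mbp*, *Pmp22*, *Sox10*, *S100b*, *Ngfr* or *Egr2*, where they were tested (lowest adjusted p in limma 0.789), and the direction reversed in 8 of 17 settings for *Mbp*, 6 of 16 for *S100b*, 3 of 16 for *Sox10*, 3 of 15 for *Ngfr*, 1 of 17 for *Egr2* and 0 of 17 for *Pmp22*. After quantile normalization the differences were -0.12 SD for *Sox10*, -0.12 SD for *S100b*, -0.26 SD for *Ngfr* and 0.43 SD for *Egr2*, and after median centring -0.14 SD for *Mbp*, -0.11 SD for *Sox10*, -0.14 SD for *S100b* and -0.08 SD for *Ngfr*. *Pmp22* stood at 0.00 and 0.01 SD in these 2 settings and at 1.64 SD with the replicate block. Of all genes, 65.7% were lower on the collagen diet after quantile normalization and 86.5% after median centring. *Mbp* stood at -0.12 SD with array weights, at -0.22 SD with the mean of all probe sets (where *Sox10* was at -0.10 SD) and at -0.03 SD without the 2 arrays low in muscle genes. Leaving out 1 array gave ranges of -0.38 to 0.72 SD for *Mbp*, -0.20 to 0.65 SD for *S100b*, -0.08 to 1.01 SD for *Ngfr*, 0.36 to 1.47 SD for *Pmp22*, 0.35 to 1.47 SD for *Sox10*, -1.84 to -0.81 SD for *Egr2* and -0.71 to 0.17 SD for *Cdh19*. Over all genes, 1 gene passed with the lowest 50% left out, and 0 to 1 when 1 array was left out, against 0 of 12735 with all arrays (682 at an unadjusted p below 0.05, but 73 after quantile normalization and 78 after median centring). Labels give both diets replicates 1 to 4. The deviations of same-numbered arrays had r of 0.004, -0.018, 0.185 and -0.072 over 12735 genes, for numbers 1 to 4. Such r cannot exclude that the numbers pair samples, and the main fit assumed no pairing. With the replicate number as a block 0 genes passed. The median r of the 21 pairs was 0.70 after quantile normalization, 0.96 after median centring, where all gene pairs shared a shift, -0.13 with the mean of all probe sets, and -0.08 to 0.07 when 1 array was left out. *Sox10*, *S100b* and *Ngfr* lay below the 50% filter, as did *Ngfr* below the 30% filter when probe sets were averaged, and gave no value there. Without signal over background, the detection of the dimmer probe sets could not be judged.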

Other observations

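The mean standardized profile of the 7 measured Schwann cell and myelin genes was 0.38, -0.12, -0.04 and -0.01 SD in collagen replicates 1 to 4, against -0.71, -0.10, 0.01 and 0.58 SD in control replicates 1 to 4. The 2 highest arrays were those low in skeletal muscle genes, and the lowest was control replicate 1. *Egr2* and *Cdh19*, which were highest in the 2 arrays low in muscle genes, are part of this profile. Its order of arrays without them was not examined. The named genes closest to this profile over the 8 arrays were *Rarres2*, the secreted factor chemerin (r = 0.996), *Plekha5* (0.963), *Clk2* (0.959), *Slc26a11* (0.956) and *Cyp1b1* (0.955), among 12291 compared. They were picked as the highest of many values, so their r is a description. The list of 16 genes of Schwann cell identity and axon contact had mean scores of 0.51 SD in collagen replicate 1 and 0.76 SD in control replicate 4, the 2 highest of the 8 arrays, and its values elsewhere lay between -0.50 and 0.35 SD. The further myelin genes did not single out these 2 arrays: they scored 0.35 and 0.40 SD there and 0.38 SD in control replicate 2, with -0.96 SD in control replicate 1.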
